A study of Mus musculus with 29 samples.

Results

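Secondary septation is the step of lung development in which ridges rise from the walls of the saccules and divide them into alveoli. The data described here are the messenger RNA and other transcripts of laser-captured alveolar septa taken before, during and after that step in the mouse. The 8 libraries of P4, P5, P7 and P10 were set against 2 flanks, 8 libraries of P2.5 and 3 earlier ages (P1.5, P1 and P0.5) and 9 libraries of P13.5, P15, P19, P23 and P28. These 25 postnatal libraries are part of a series of 29, whose other 4 come from E16.5 and E18.5. Each library is from 1 wild type C57BL/6 animal, 2 per age but for a single one at P28, and no treatment or altered allele is given for any of them. The animals were pups of timed-pregnant females. Alveolar areas were marked on frozen sections and cut out so that large vessels and bronchi stayed behind, so each library mixes epithelium, endothelium, mesenchyme and whatever blood the septa held.

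During septation the tips of the new ridges carry myofibroblasts, contractile cells that lay down elastin, while epithelium, capillaries and fibroblasts multiply to cover the growing wall. Transforming growth factor beta, bone morphogenetic protein and fibroblast growth factor signals from the mesenchyme are known to take part. Once the ridges have formed, the myofibroblasts are lost and the wall thins as its double capillary layer becomes a single one. The comparison asked which transcripts stood apart during this interval from the level on both sides of it. In a captured tissue, fewer cells of a type and less RNA per cell cannot be told apart.

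Values were FPKM, a count of fragments scaled to transcript length and library size, and were compared as log2(FPKM + 1), so that a difference of 1 is a doubling for well expressed genes and less for genes near 0. Of 14616 genes tested, 40 (0.274%) were higher in P4 to P10 than in each flank and 20 (0.137%) were lower than in each, where a gene had to pass a Benjamini-Hochberg adjusted p of 0.05 against both. Both comparisons use the same P4 to P10 libraries. The called genes are described by role, in groups made after the values were seen. Of the higher genes 8 were placed under cell division, 8 under matrix and secreted, 8 under contractile and cytoskeletal and 10 under signalling and adhesion. Of the lower ones 5 were placed under transport and 5 under metabolism. A weaker rule, in which P4 to P10 was set against the average of both flanks and only the side had to match in each, called 409 genes higher (2.80%) and 156 lower (1.07%). It is used below for gene lists, and a gene it calls may differ mainly from 1 flank. The flanks were not alike in weight: 77 genes (0.527%) were higher and 137 (0.937%) lower than in P0.5 to P2.5, against 1092 (7.47%) higher and 568 (3.89%) lower than in P13.5 to P28.

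Requiring an adjusted p in each of the comparisons does not adjust for the choice of the larger one. When the larger of both p values was adjusted once per gene, 3 higher genes were left, Cdca5, Prokr2 and Thsd7b, and 0 lower genes. Before adjustment 442 higher and 226 lower genes had a larger p under 0.05. Prokr2 and Thsd7b reached 1 FPKM in 4 libraries, the least needed for a test, only with those of P4 to P10 counted. Of the 60 calls, 18 were kept when any 1 of the 25 postnatal libraries was left out, 16 of them higher and 2 lower. Single libraries moved the counts by more than 1.5 times. Without P1.5 pup e, P0.5 pup e, P1 pup e, P1 pup d, P7 pup d or P5 pup b, in that order, the higher genes numbered 18, 22, 23, 23, 23 and 24, and without P0.5 pup f they numbered 109. The lower genes numbered 3, 6, 12, 12, 12, 13, 13 and 13 without P1.5 pup e, P1 pup d, P7 pup d, P2.5 pup h, P10 pup a, P5 pup b, P7 pup c or P0.5 pup e, and 32 without P0.5 pup f.

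P0.5 pup f stood apart from its group. The mean log2(FPKM + 1) of the mitosis list was 3.95 in this library, against 1.69 in the other P0.5 library and 1.57 to 2.58 in the 6 libraries of P1, P1.5 and P2.5, and within the range of 2.45 to 4.27 of P4 to P10. It also lay with P4 to P10 for P2ry14, Kcnb2, Scnn1a and the glucocorticoid list, as given below. Its age label was used as it stands, and whether the label is right was not tested. In P15 pup c the same mean was 3.25, against 1.07 to 2.24 in the other 8 libraries of the late flank. Of 8623 well expressed protein-coding genes, 416 are listed at 0 in P10 pup a, 578 in P19 pup d and 242 in P19 pup f, so a 0 there can be a failed estimate. Without these 3 libraries 61 genes were higher, 33 of them among the 40, and 12 were lower, 9 of them among the 20. FPKM totals lay between 318176 and 457706 per library and read depth is unknown. The spread within each group is therefore the only measure of precision, and it includes differences between the ages of the group. Markers of septal cells were present in all 25 libraries: the type 1 cell marker Ager lay between 179 and 863 FPKM, the type 2 cell marker Sftpc between 5350 and 21030 and the endothelial marker Pecam1 between 145 and 346. They do not show that the captures held septa alone. The club cell gene Scgb1a1 lay between 513 and 5143 FPKM. The mean log2(FPKM + 1) of the cardiac muscle list was 4.82 in P5 pup b and 4.79 in P0.5 pup e, against 0.85 to 3.14 in the other postnatal libraries.

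**Figure D1:**
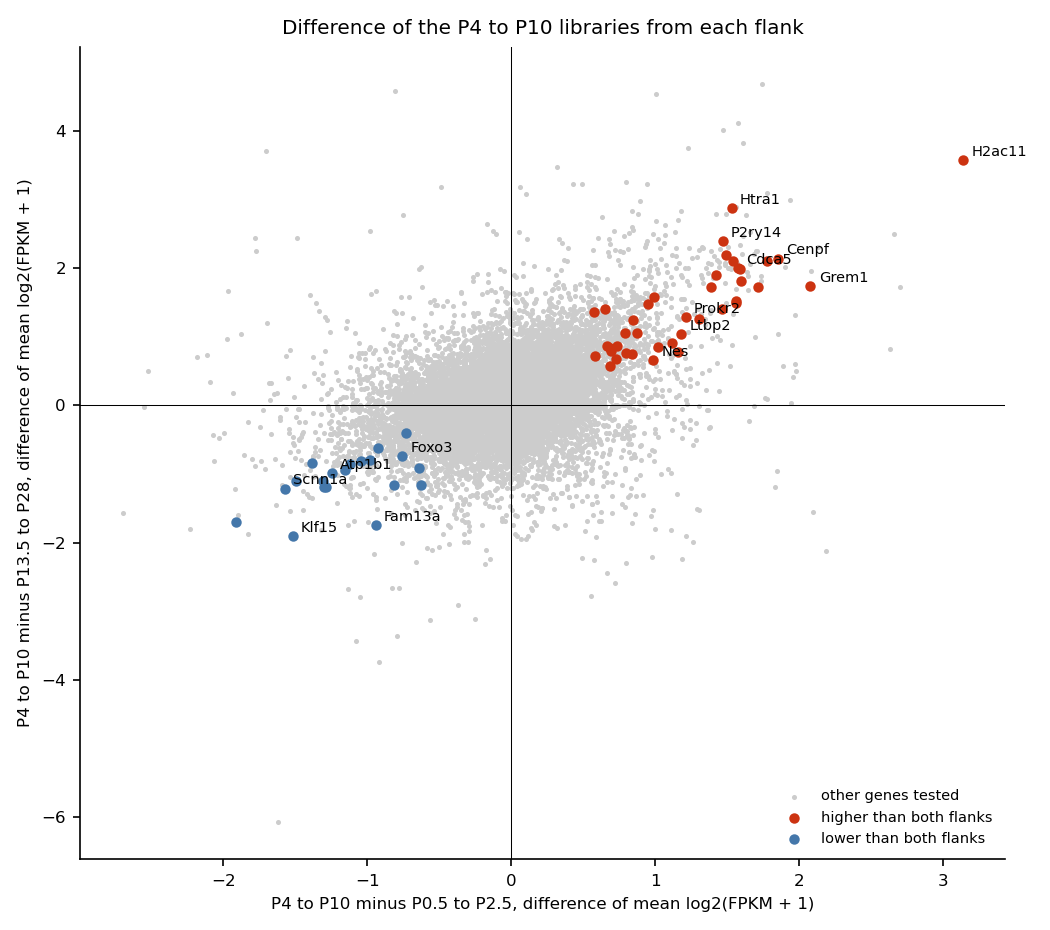
Each point is 1 of 14616 genes, with the difference of mean log2(FPKM + 1) between P4 to P10 and P0.5 to P2.5 on the horizontal axis and between P4 to P10 and P13.5 to P28 on the vertical axis. The 40 genes called higher against both flanks (red) lie in the upper right and the 20 called lower (blue) in the lower left, with H2ac11 farthest out among the higher ones.

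Cell division genes formed the first group of the higher genes, 8 of the 40. They were Cdca5, Cenpf, Spc25, Kif20b, Prr11, Cip2a, Clspn and the histone gene H2ac11. Their products act from the copying of DNA to the parting of the chromosomes: Clspn in the replication checkpoint, H2ac11 as a core histone made with new DNA, Cdca5 as sororin, which holds sister chromatids together, Cenpf and Spc25 at the kinetochore, Kif20b as a motor of the late division and Cip2a as an inhibitor of the phosphatase PP2A. In the 200 bases before the RefSeq start site (GRCm38.p6), the sequences of 4 of them read as follows from 5′ to 3′, with matches to the CCAAT box (CCAAT or its complement ATTGG) and to the cell cycle homology region (TTTGAA or TTCAAA) in capitals. They are shown because these motifs are known from promoters of genes of the G2 and M phases.
Cenpf: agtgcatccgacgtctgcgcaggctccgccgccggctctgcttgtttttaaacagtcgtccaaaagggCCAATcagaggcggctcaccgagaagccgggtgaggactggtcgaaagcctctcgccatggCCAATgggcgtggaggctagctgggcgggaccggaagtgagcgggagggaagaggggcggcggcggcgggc
Spc25: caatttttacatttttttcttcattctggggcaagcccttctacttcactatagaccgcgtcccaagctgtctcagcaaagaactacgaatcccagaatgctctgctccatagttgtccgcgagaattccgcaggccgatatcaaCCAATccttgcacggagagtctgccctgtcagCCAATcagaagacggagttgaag
Cdca5: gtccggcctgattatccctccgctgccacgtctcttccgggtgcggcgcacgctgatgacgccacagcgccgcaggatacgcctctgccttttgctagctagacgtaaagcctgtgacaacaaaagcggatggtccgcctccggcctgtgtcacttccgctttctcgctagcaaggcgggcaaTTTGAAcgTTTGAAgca
H2ac11: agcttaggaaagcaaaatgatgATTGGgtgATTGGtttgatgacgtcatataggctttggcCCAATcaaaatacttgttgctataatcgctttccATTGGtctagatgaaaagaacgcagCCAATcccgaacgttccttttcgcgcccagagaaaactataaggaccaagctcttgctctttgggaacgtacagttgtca
Cenpf (chr1:189688087-189688286, minus strand) and Spc25 (chr2:69206214-69206413, minus strand) each held 2 CCAAT boxes. Cdca5 (chr19:6084897-6085096, plus strand) held 2 copies of TTTGAA and no CCAAT box. H2ac11 (chr13:22042950-22043149, minus strand) held 5 CCAAT boxes. In the 250 bases before the start, 6 of these 8 genes (75%) had a CCAAT box, against 4380 of 10995 protein-coding genes tested (39.8%), 15 of 36 called higher genes (41.7%) and 10 of 17 called lower genes (58.8%). Of the 8, 2 (25%) had TTTGAA and 1 (12.5%) had both motifs. Of the 34 genes of the mitosis list with a sequence, 25 (73.5%) had a CCAAT box, 14 (41.2%) had TTTGAA on either strand, against 13.3% of the genes tested, and 11 (32.4%) had both, against 5.06%. Among the 25 of the list with a sequence that were called higher than the average of the flanks, these shares were no larger. They were 18 (72%) for the CCAAT box, 8 (32%) for TTTGAA and 6 (24%) for both. The motifs were counted independently of each other on both strands, and a match is a description of the letters only.

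Cdca5 was the clearest of the group. Its FPKM ranged from 0 to 1.53 before (median 0.811), from 2.03 to 8.15 at P4 to P10 (median 4.47) and from 0 to 1.62 after (median 0). All 8 libraries of P4 to P10 lay above all 17 of the flanks, and the highest of them was P7 pup c. The difference was 1.58 ± 0.27 (SE) on the log2 scale from P0.5 to P2.5 (adjusted p = 0.00236) and 1.99 ± 0.26 from P13.5 to P28 (adjusted p = 4.41e-06). Absence of overlap with either flank was found for 5 of the genes tested on the higher side (0.0342%), Cdca5, Prokr2, Nes, Egfem1 and Nfib, and for 3 on the lower side (0.0205%), Atp1b1, Clic5 and Neat1. Of these 8, Egfem1, Nfib, Clic5 and Neat1 missed the call against P0.5 to P2.5 (adjusted p = 0.053, 0.152, 0.0939 and 0.0759).

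H2ac11 had the largest contrast with the flanks of the 60 genes. It ranged from 0 to 6.74 FPKM before (median 0.455), from 4.05 to 43.3 at P4 to P10 (median 19.5) and from 0 to 16.4 after (median 0). P15 pup c held the value of 16.4, while the next highest late library was at 3.25, and 5 of the 8 libraries of P4 to P10 lay above all of the flanks. The log2 difference was 3.14 ± 0.65 from before (adjusted p = 0.0127) and 3.57 ± 0.63 from after (adjusted p = 0.00027). Histone genes have near-identical copies between which fragments can be divided, so the level of a single copy is uncertain. Cenpf ranged from 2.33 to 33.6 before (median 7.05), from 9.87 to 59.2 (median 34.5) and from 1.3 to 19.6 after (median 7.78). The top value before P4 was that of P0.5 pup f and the top value after P10 that of P15 pup c, the same libraries that stood high for the mitosis list. Its log2 difference was 1.85 ± 0.43 from before (adjusted p = 0.0237) and 2.14 ± 0.42 from after (adjusted p = 0.000918).

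The other 5 cell division genes had contrasts with the average of the flanks between 1.52 ± 0.35 (Spc25) and 1.94 ± 0.39 (Prr11) on the log2 scale. Mean FPKM of Spc25 was 15.9 ± 13.1 before (SD, n = 8), 47.1 ± 27.1 at P4 to P10 (n = 8) and 15.1 ± 7.46 after (n = 9), and its adjusted p against before was 0.0484. Kif20b averaged 6.9 ± 5.37, 20.4 ± 8.71 and 6.88 ± 4.58 FPKM in the same order. Their libraries overlapped those of the flanks. Calls of Cdca5 and H2ac11 were kept without any 1 of the 25 libraries. That of Cenpf was lost without P5 pup b or any of P0.5 pup e, P1 pups d and e and P1.5 pup e, with an adjusted p of up to 0.0615. Those of Kif20b, Cip2a, Clspn, Prr11 and Spc25 were lost in 8, 11, 11, 12 and 19 of the 25 fits, with an adjusted p of up to 0.118.

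Other genes of cell division were read from lists. Of 41 mitosis genes tested, 1 (Cenpf) was called higher against both flanks and 31 against their average, beside 2.80% of all genes, and 0 were lower. All 41 had a mean above both flanks, and the median contrast was 1.63 on the log2 scale, beside 0.02 over all genes tested. Mki67, the proliferation marker, averaged 72.7 FPKM before, 193 at P4 to P10 and 45.7 after (contrast 1.96, adjusted p = 0.0047), and Top2a, the topoisomerase that untangles chromosomes, averaged 17.3, 50.9 and 12.5 (contrast 1.97, adjusted p = 0.004). Without P0.5 pup f, 22 of the 41 were called higher than both flanks, among them Mki67, Top2a, Plk1, Aurka and Foxm1, and 33 higher than their average. The count against both flanks was 8 without P10 pup f or P15 pup c, 7 without the 3 libraries rich in zeros, 0 without P5 pup b, P1 pup d, P1 pup e, P0.5 pup e or P1.5 pup e, and 1 or 2 without any other library. That against the average lay between 23 (without P4 pup e) and 33.

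Genes of DNA replication showed smaller differences. Of 38 tested, 0 were called against both flanks and 4 higher against their average (Mcm3, Mcm4, Pola1 and Uhrf1), beside 2.80% of all genes, with a median contrast of 0.80. The latter count was 0 without P4 pup a, P4 pup e or P5 pup b, 11 without P0.5 pup f, 10 without P10 pup f, 9 without P10 pup a or P15 pup c, and between 1 and 5 without any other library. Of 47 replication-dependent histone genes tested, H2ac11 was called against both flanks and 13 against their average, all higher, again beside 2.80%, with a median contrast of 1.69 and 43 of 47 above both flanks. Without P4 pup a or P4 pup e, 6 histone genes were called, without P5 pup b 8 and without P10 pup a 20. H3c2 averaged 29.6 FPKM before, 80.3 at P4 to P10 and 9.62 after (adjusted p = 0.0088).

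By the mean log2(FPKM + 1) of each age, all 8 cell division genes peaked at P4 (6 genes) or P5 (2 genes), whereas 27 of the other 32 higher genes peaked at P7 (15) or P10 (12). By mean FPKM, Cdca5 peaked at P7 instead (5.09, against 4.63 at P4), and Ptpn5 and Megf10 at P10 in place of P7. The list mean of mitosis genes was 4.20 and 4.27 in the P4 libraries, 4.00 and 3.95 at P5, 3.23 and 3.41 at P7 and 2.69 and 2.45 at P10. Those of P10 overlapped the 2.56 and 2.58 of P2.5. The contrasts did not use the order of ages within P4 to P10. The prenatal libraries entered no contrast, though they entered the filter and the estimate of the spread. In them 5 of the 8 cell division genes (Cenpf, Prr11, Cip2a, Kif20b and Spc25) had a higher mean than at P4 to P10, Cenpf at 51.7 FPKM and Spc25 at 59.3. All 32 other higher genes had a lower mean log2(FPKM + 1) before birth than at P4 to P10, though the difference was only -0.10 for Tgfb2. Of all genes tested 46.3% had a lower mean. The 32 were called for a high P4 to P10 mean, so their share cannot be weighed against that of all genes. The prenatal mean pools E16.5 with E18.5. At E16.5 alone, mean FPKM was above that of P4 to P10 for Tgfb2 (49.9 against 46.3) and Rbmx (154 against 144). Among the cell division genes outside those 5, this held for Cdca5 (5.15 against 4.33) and H2ac11 (24.9 against 22.4).

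**Figure D2:**
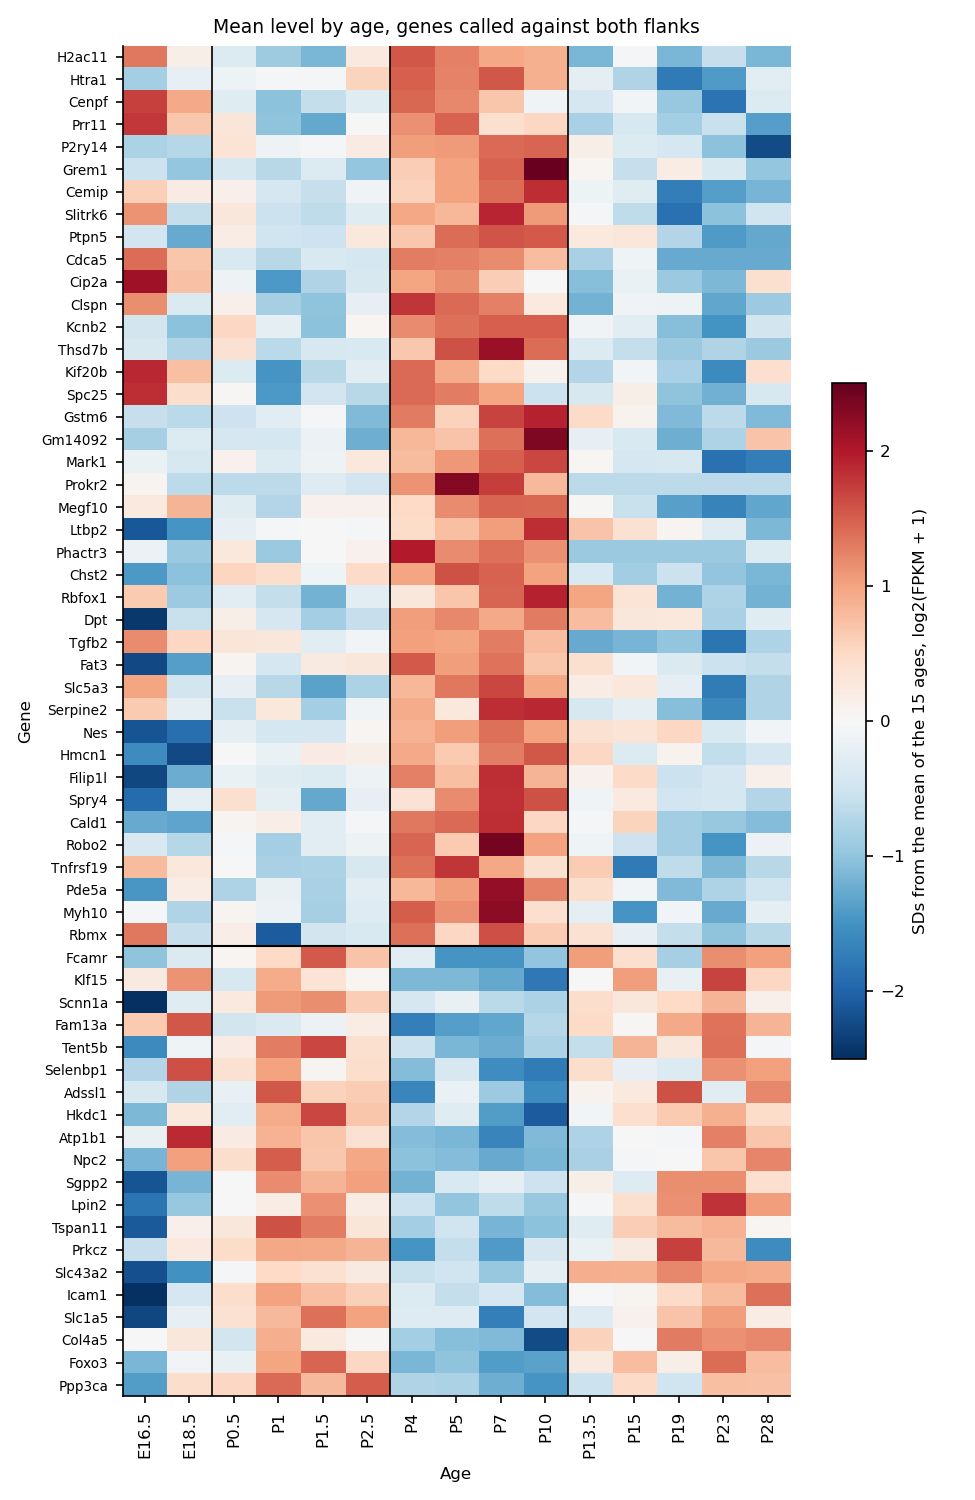
Mean log2(FPKM + 1) of each of the 60 called genes at each of 15 ages, as SDs from the gene's own mean over the ages (red above, blue below), with lines before P0.5, P4 and P13.5. The 40 higher genes (top, ordered by contrast) are red from P4 to P10 (Cenpf and Spc25 only to P7). All 8 cell division genes, among others, are also red at E16.5, while the 20 lower genes (bottom) are blue from P4 to P10.

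The group named matrix and secreted came next, with Ltbp2, Dpt, Hmcn1, Htra1, Serpine2, Cemip, Chst2 and Thsd7b among the higher genes. The name is loose, and a place in the group does not mean that the product is secreted, as for Chst2 and Thsd7b. Ltbp2 encodes a latent TGF-beta binding protein that sits on fibrillin microfibrils. It ranged from 24.1 to 60.9 FPKM before (median 43.5), from 52.3 to 219 at P4 to P10 (median 89.3) and from 18.9 to 85 after (median 53.9). Its highest values were those of both P10 libraries, 151 and 219 FPKM, and 5 of the 8 libraries of P4 to P10 lay above all of the flanks. The log2 difference was 1.18 ± 0.26 from before (adjusted p = 0.0186) and 1.03 ± 0.25 from after (adjusted p = 0.0069). Thsd7b, a protein with thrombospondin type 1 repeats, ranged from 0 to 1.5 FPKM before (median 0.413), from 1.3 to 6.05 (median 2.71) and from 0 to 0.465 after (median 0.179). It was low throughout, and only 1 library of P4 to P10 fell below the top flank value, that of P0.5 pup f. No other library outside P4 to P10 reached 1 FPKM, so Thsd7b passed the filter on low values only through that group. The difference was 1.39 ± 0.23 (adjusted p = 0.00217) from before and 1.72 ± 0.23 (adjusted p = 4.91e-06) from after.

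Cemip, a protein needed for the breakdown of hyaluronan, averaged 2.11 ± 1.28 FPKM before (SD, n = 8), 7.84 ± 3.5 at P4 to P10 (n = 8) and 1.01 ± 0.972 after (n = 9). Its contrast was 1.84 ± 0.26 on the log2 scale, and 7 of the 8 libraries lay above all of the flanks. Chst2, a sulfotransferase of N-acetylglucosamine, averaged 41.6 ± 10.3, 64.8 ± 9.61 and 23.9 ± 4.43 FPKM (adjusted p = 0.0175 and 3.93e-08 against before and after). Dpt, the collagen-binding protein dermatopontin, averaged 63.8 ± 26.1, 138 ± 21.1 and 82.6 ± 26.5 FPKM (adjusted p = 0.00962 and 0.0195). The top value of Dpt before P4 was the 126 FPKM of P0.5 pup f, above the lowest P4 to P10 library at 107. Htra1, a secreted serine protease, had the largest later difference of these 8, with means of 19.7 ± 9.91, 53.4 ± 12.5 and 8.05 ± 4.64 FPKM (adjusted p = 0.0471 and 9.47e-06). Serpine2, a secreted inhibitor of serine proteases, and Hmcn1, a large protein of basement membranes, had contrasts of 0.92 ± 0.17 and 0.79 ± 0.14.

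Calls of Ltbp2, Thsd7b, Cemip, Chst2 and Dpt were kept without any 1 library. That of Hmcn1 was lost without P0.5 pup e or P1.5 pup e, with an adjusted p of up to 0.0558, and those of Serpine2 and Htra1 were lost in 12 and 17 of the 25 fits, with an adjusted p of up to 0.12. One collagen went the other way: Col4a5, a chain of the basement membrane type IV collagen, fell from 25.4 ± 4.88 FPKM before to 15.9 ± 3.2 at P4 to P10 and was at 30.9 ± 6.09 after (adjusted p = 0.0252 and 8.98e-05). Its call was lost without P1 pup d, P1 pup e, P1.5 pup e, P2.5 pup h, P10 pup a or P10 pup f, with an adjusted p of up to 0.0649.

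In the matrix lists 12 of 21 elastic fibre genes, 10 of 22 collagens and 10 of 15 provisional matrix genes lay above both flanks, beside 4839 of all 14616. Calls against both flanks stand beside 0.274% of all genes higher and 0.137% lower, and those against the average beside 2.80% and 1.07%. Of 21 genes of elastic fibres and crosslinking, Ltbp2 was called against both flanks and 4 against their average (Fbn1, Ltbp2, Loxl2 and Loxl3), with 0 lower and a median contrast of 0.52. Fbn1, the main fibrillin, averaged 107 FPKM before, 134 at P4 to P10 and 76.1 after, and Loxl2, a crosslinking oxidase, 73.7, 108 and 34.4. Elastin itself averaged 304 FPKM before, 603 at P4 to P10 and 389 after and did not pass against either flank (adjusted p = 0.519 and 0.282). Of 22 collagen genes 5 were higher than the average of the flanks (Col1a2, Col5a1, Col5a2, Col15a1 and Col16a1) and Col4a5 was lower, with a median contrast of 0.17. Of 15 genes of the provisional matrix 6 were higher (Tnc, Vcan, Hmmr, Postn, Thbs2 and Tgfbi) and 0 lower, with a median of 0.52. In each of these lists the difference lay mostly in the later flank. Median differences from before and after were 0.10 and 0.74 for elastic fibre genes, 0.04 and 0.31 for collagens and 0.10 and 1.02 for the provisional matrix. In that order 1, 0 and 0 genes were higher than before, beside 0.527% of all genes. Against the later flank 11, 9 and 10 were higher, beside 7.47%. Tnc and Vcan were among those that differed mostly from the later flank: Vcan averaged 78.3 FPKM before, 88.3 at P4 to P10 and 8.5 after.

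Contractile and cytoskeletal genes were the next group, with P2ry14, Nes, Myh10, Cald1, Pde5a, Filip1l, Phactr3 and Mark1. P2ry14, a receptor for UDP-sugars that was listed among myofibroblast genes here, ranged from 20.2 to 75.3 FPKM before (median 31.9), from 64.3 to 130 at P4 to P10 (median 85) and from 3.07 to 35.6 after (median 14.4). The 75.3 FPKM of P0.5 pup f lay above the lowest 3 libraries of P4 to P10, and every other flank library was at 35.6 or less. The difference was 1.47 ± 0.32 from before (adjusted p = 0.0175) and 2.39 ± 0.31 from after (adjusted p = 4.69e-06). Nes, the intermediate filament protein nestin, ranged from 51.1 to 110 before (median 76.7), from 131 to 176 (median 144) and from 64.1 to 116 after (median 93.9). No library of P4 to P10 overlapped a flank. The difference was 0.98 ± 0.15 (adjusted p = 0.000735) and 0.66 ± 0.14 (adjusted p = 0.00224).

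Myh10, the heavy chain of nonmuscle myosin IIB, averaged 85.7 ± 13.1 FPKM before (SD, n = 8), 130 ± 29.8 at P4 to P10 (n = 8) and 78.1 ± 13.9 after (n = 9; adjusted p = 0.0302 and 0.000654). Cald1, the actin-binding protein caldesmon, averaged 119 ± 16.1, 190 ± 34.3 and 106 ± 28.8 FPKM (adjusted p = 0.0186 and 0.000135). Pde5a, the phosphodiesterase that breaks down cyclic GMP in smooth muscle and pericytes, averaged 78.4 ± 13.9, 130 ± 22.6 and 81.8 ± 19.2 FPKM (adjusted p = 0.0144 and 0.00255). All 3 had their highest age mean at P7. Filip1l had a contrast of 0.79 ± 0.13, Phactr3, a regulator of actin and protein phosphatase 1, of 1.04 ± 0.16 at levels of at most 2.19 FPKM, and Mark1, a kinase of microtubule-associated proteins, of 1.28 ± 0.23. Calls of P2ry14, Nes, Pde5a, Filip1l and Phactr3 were kept without any 1 library. That of Cald1 was lost without P1.5 pup e (adjusted p = 0.0511), and those of Myh10 and Mark1 were lost in 10 and 17 of the 25 fits, with an adjusted p of up to 0.122.

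Of 21 contractile and myofibroblast genes tested, 2 were called higher against both flanks, beside 0.274% of all genes, and 7 against their average (Acta2, Myh11, Myh10, Des, Myl9, Fgf18 and P2ry14), beside 2.80%, with 0 lower. The median contrast was 0.65 and 15 of the 21 lay above both flanks. With 1 library left out, between 5 and 8 were called against the average. Acta2, the smooth muscle actin of myofibroblasts, averaged 139 FPKM before, 172 at P4 to P10 and 44.6 after. It passed against the later flank (adjusted p = 6.87e-07) and not against the earlier one (adjusted p = 0.579). Pdgfra, the receptor that marks alveolar fibroblasts, instead climbed through all 3 groups, with means of 26.3, 48.5 and 99.8 FPKM. Of 15 pericyte genes 1 (Pde5a) was called against both flanks, beside 0.274% of all genes, and 2 (Pde5a and Rgs5) against their average, beside 2.80%. Rgs5, called only against the average, had means of 4.75, 12.6 and 1.79 FPKM (contrast 1.77, adjusted p = 0.008).

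**Figure D3:**
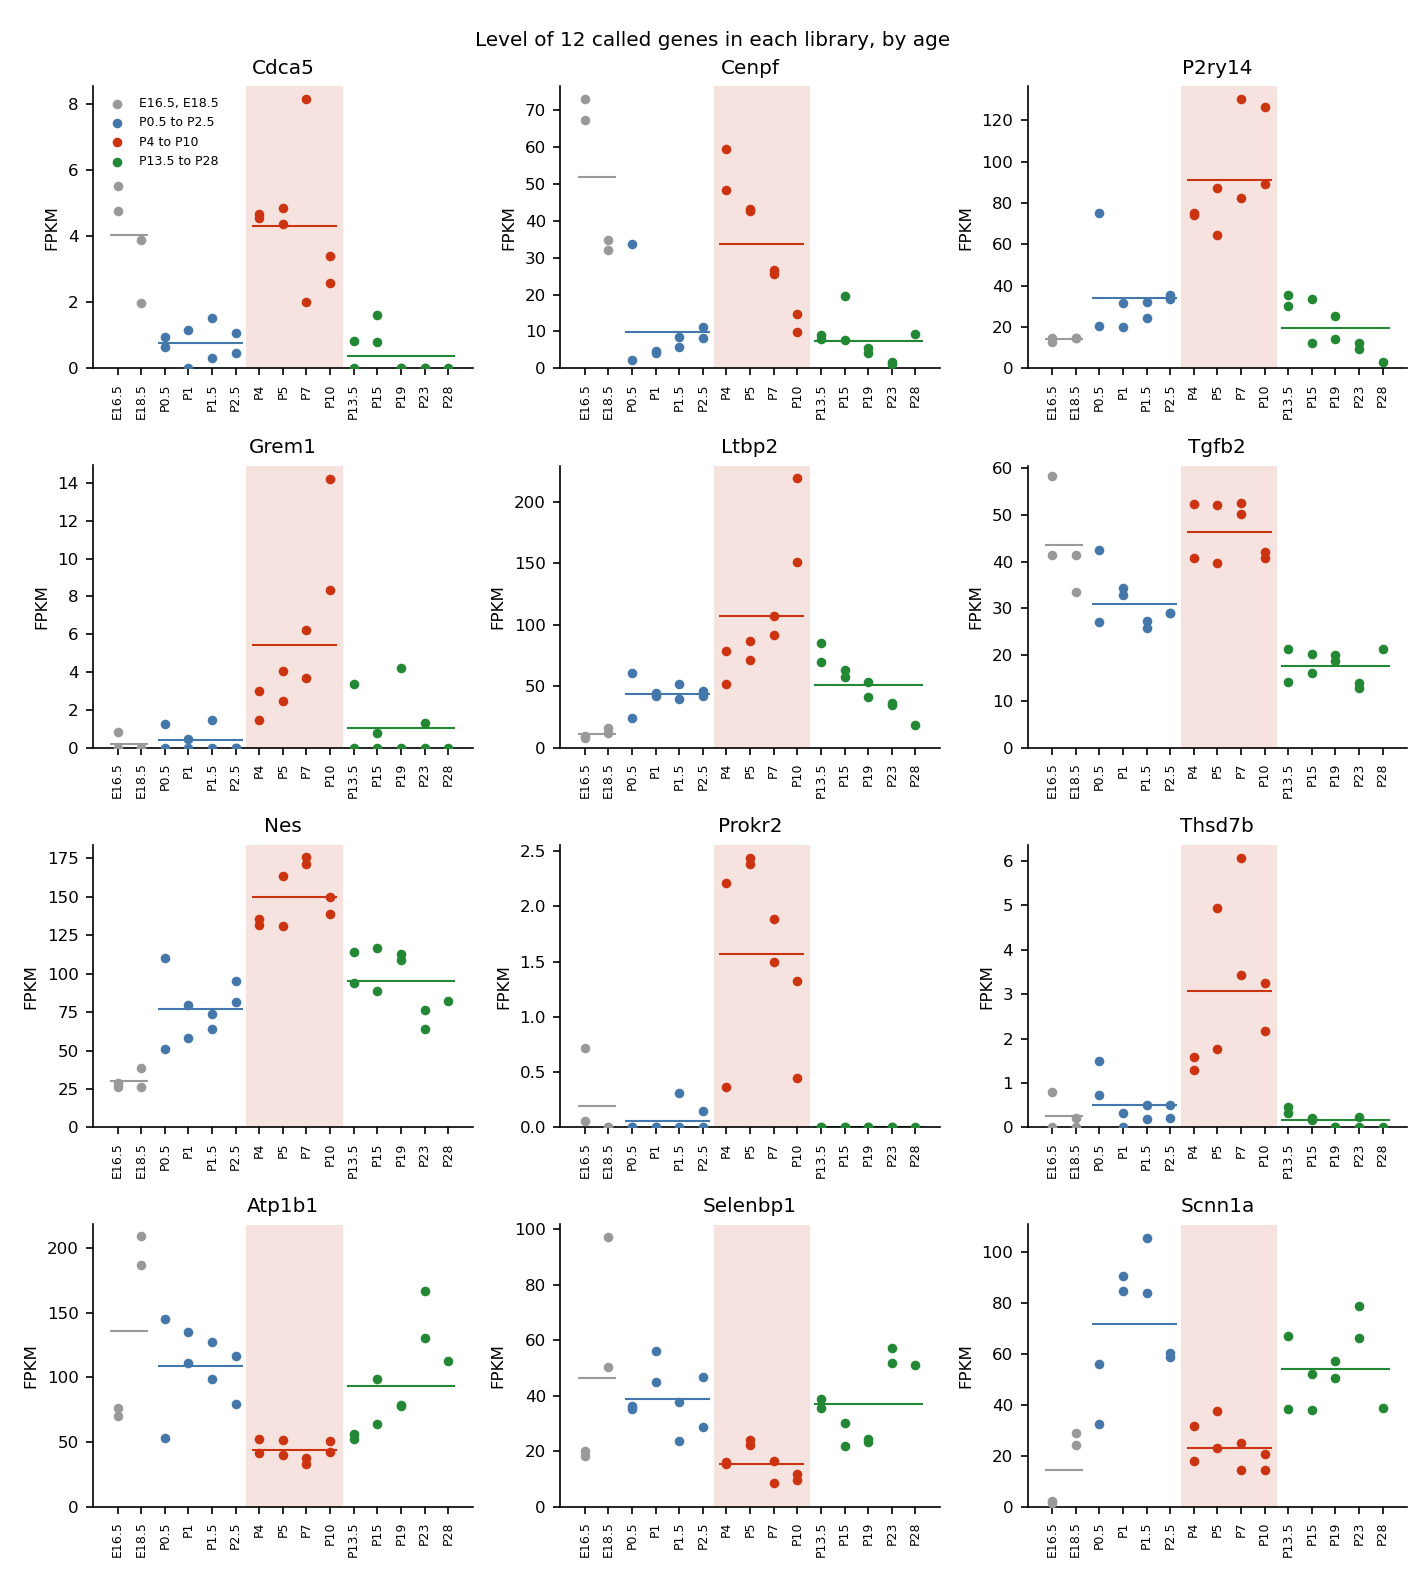
FPKM of 12 called genes in each library (points) by age, with the mean of each group as a line and P4 to P10 shaded; each axis begins at 0. Cdca5, Nes and Prokr2 lie above every flank library at P4 to P10 and Atp1b1 below every one, and the P0.5 library high for Cenpf (33.6 FPKM) and P2ry14 (75.3 FPKM) is P0.5 pup f.

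Signalling and adhesion genes were the largest of the higher groups, with Tgfb2, Grem1, Spry4, Prokr2, Tnfrsf19, Robo2, Fat3, Slitrk6, Megf10 and Ptpn5. Tgfb2, a TGF-beta ligand, ranged from 25.8 to 42.5 FPKM before (median 28.9), from 39.8 to 52.5 at P4 to P10 (median 46.1) and from 12.9 to 21.3 after (median 18.7). Only P0.5 pup f, at 42.5 FPKM, reached the range of P4 to P10, and all 9 later libraries lay below it. The difference was 0.57 ± 0.13 from before (adjusted p = 0.0237) and 1.36 ± 0.13 from after (adjusted p = 3.93e-08). Its call was lost without P5 pup b, P7 pup d, P0.5 pup e or P1.5 pup e, with an adjusted p of up to 0.0625. Grem1, a secreted antagonist of bone morphogenetic proteins, ranged from 0 to 1.48 FPKM before (median 0), from 1.46 to 14.2 (median 3.87) and from 0 to 4.21 after (median 0). Both P10 libraries were highest, at 8.36 and 14.2 FPKM. The difference was 2.08 ± 0.38 (adjusted p = 0.00609) and 1.73 ± 0.37 (adjusted p = 0.00225), and the call was kept without any 1 library.

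Prokr2, a receptor for prokineticins, was low throughout. It ranged from 0 to 0.312 FPKM before, with 6 of 8 libraries listed at 0, and from 0.364 to 2.43 at P4 to P10 (median 1.69), and it is listed at 0 in all 9 later libraries. Before birth it ranged from 0 to 0.715, the highest value being that of 1 E16.5 library, above the 2 lowest of P4 to P10. The 8 libraries of P4 to P10 did not overlap the postnatal flanks (adjusted p = 0.00126 and 2.13e-05), and the call was kept without any 1 library. Outside P4 to P10 no library reached 1 FPKM, so Prokr2 passed the filter on low values only through that group. Its lack of overlap is therefore no separate support. Spry4, an inhibitor of receptor tyrosine kinase signals that FGF induces, averaged 26.5 ± 6.56 FPKM before, 46.9 ± 13.1 at P4 to P10 and 26.8 ± 4.26 after (adjusted p = 0.0221 and 0.00469). Its call was lost without P1.5 pup e, P7 pup d or P10 pup a, with an adjusted p of up to 0.0569.

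Of the other 6, Robo2, a receptor for Slit guidance proteins, averaged 38.2 ± 9.63, 61.9 ± 14.8 and 34.1 ± 6.63 FPKM. Fat3, a giant protocadherin, averaged 20.2 ± 8.1, 36.2 ± 7 and 17.1 ± 4.35 FPKM. Slitrk6, a membrane protein with leucine-rich repeats, Ptpn5, a tyrosine phosphatase, and Megf10, a receptor with EGF repeats, had contrasts of 1.82 ± 0.30, 1.79 ± 0.34 and 1.21 ± 0.21, and Tnfrsf19, a member of the TNF receptor family, of 0.74 ± 0.16. The call of Robo2 was lost without P1.5 pup e (adjusted p = 0.0511), that of Slitrk6 without P1 pup d, P1.5 pup e or P7 pup d (up to 0.0569) and that of Fat3 without P0.5 pup e, P1 pup d, P1 pup e or P1.5 pup e (up to 0.0559). Those of Ptpn5, Megf10 and Tnfrsf19 were lost in 10, 10 and 17 of the 25 fits, with an adjusted p of up to 0.103.

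In each of the pathway lists at most 1 member was called against both flanks, beside 0.274% of all genes higher and 0.137% lower. The calls against the average stand beside 2.80% of all genes higher and 1.07% lower. Of 28 TGF-beta and activin genes, Tgfb2 passed against both, and against the average Tgfb2, Tgfb3 and Fstl1 were higher and Fst lower. Tgfb3 averaged 25.9 FPKM before, 52.4 at P4 to P10 and 28.8 after (contrast 0.92, adjusted p = 0.013). Of 23 BMP genes Grem1 passed against both flanks, and Grem1, Bmp1 and Smad5 against the average. Of 19 FGF genes Spry4 passed against both, and against the average Fgf18 and Spry4 were higher and Fgf1 lower. Fgf18, a mesenchymal ligand of the growing lung, averaged 11.6, 18.5 and 4.95 FPKM. Of 18 Hedgehog genes Smo and Gli3 were higher, and of 39 Wnt genes Rspo2, Fzd1 and Dkk3. Of 25 genes of the IGF axis and fetal growth, 5 were higher (Igf1, Igfbp2, Igfbp4, Mycn and Grb10) and 2 lower (Igfbp3 and Igfbp6), with Igf1 at 30.7, 39.9 and 14.8 FPKM. The median contrasts of these 6 lists lay between -0.03 and 0.32.

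The last 6 higher genes had no role in common. Kcnb2, a voltage-gated potassium channel, averaged 3.79 ± 3.42 FPKM before, 10.1 ± 1.31 at P4 to P10 and 2.3 ± 1.82 after (adjusted p = 0.0161 and 6.31e-05). It overlapped the flanks only through P0.5 pup f at 11.9 FPKM. Slc5a3, the sodium and myo-inositol cotransporter, averaged 6.3 ± 1.74, 13.6 ± 2.05 and 7.4 ± 2.46 FPKM (adjusted p = 0.00924 and 0.00401). Both calls were kept without any 1 library. Rbmx and Rbfox1, which encode RNA-binding proteins, had contrasts of 0.63 ± 0.15 and 1.01 ± 0.25, Gstm6, a glutathione transferase, of 1.43 ± 0.31, and the predicted gene Gm14092 of 1.28 ± 0.29. Gstm6 belongs to a family of close copies, so its level is uncertain. The calls of Gstm6, Gm14092, Rbmx and Rbfox1 were lost in 7, 11, 14 and 20 of the 25 fits, with an adjusted p of up to 0.107.

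Of the 20 lower genes, 5 were grouped under transport and 5 under metabolism. Atp1b1, the beta subunit of the sodium pump, ranged from 53.4 to 146 FPKM before (median 114), from 33.5 to 52.3 at P4 to P10 (median 42.1) and from 52.8 to 167 after (median 78.8). All 8 libraries of P4 to P10 lay below all 17 of the flanks, of which P0.5 pup f and both P13.5 libraries came nearest. The difference was -1.25 ± 0.24 from before (adjusted p = 0.00787) and -0.99 ± 0.23 from after (adjusted p = 0.00491), and the call was kept without any 1 library. Scnn1a, the alpha subunit of the epithelial sodium channel, with which the pump clears lung liquid, ranged from 32.7 to 106 FPKM before (median 72.4), from 14.4 to 37.9 (median 22) and from 38 to 79 after (median 52.2). Only P0.5 pup f overlapped the P4 to P10 libraries. The difference was -1.58 ± 0.36 (adjusted p = 0.0219) and -1.21 ± 0.35 (adjusted p = 0.0211), and the call was lost without P1 pup d or P1.5 pup e, with an adjusted p of up to 0.0518.

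Selenbp1, a selenium-binding protein that oxidizes methanethiol, ranged from 23.8 to 56 FPKM before (median 37.1), from 8.67 to 24.2 (median 15.8) and from 22.1 to 57.2 after (median 35.5). The 2 P5 libraries, at 22.3 and 24.2 FPKM, overlapped the flanks and the other 6 did not. The difference was -1.29 ± 0.28 (adjusted p = 0.016) and -1.19 ± 0.27 (adjusted p = 0.0033), and the call was kept without any 1 library. Npc2, a cholesterol carrier of lysosomes, averaged 110 ± 36.9 FPKM before, 40.2 ± 9.1 at P4 to P10 and 75.1 ± 26.2 after (adjusted p = 0.00609 and 0.0273). The amino acid transporter Slc43a2 averaged 31.1 ± 4.49, 20.4 ± 6.34 and 45.4 ± 3.98 FPKM, and the glutamine transporter Slc1a5 35 ± 7.6, 18.1 ± 4.84 and 28.2 ± 6.69. The call of Npc2 was lost without P4 pup e, P5 pup b, P7 pup c, P23 pup e, P23 pup f or P28 pup c (up to 0.0588), that of Slc43a2 without P5 pup b, P7 pup c, P7 pup d, P1 pup d, P1 pup e or P1.5 pup e (up to 0.0625), and that of Slc1a5 in 12 of the 25 fits (up to 0.103).

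The metabolic genes were Sgpp2, a phosphatase of sphingosine 1-phosphate, Lpin2, a phosphatidate phosphatase, Hkdc1, a hexokinase, and Adssl1, an enzyme of AMP synthesis, with contrasts of -1.05 ± 0.24, -0.99 ± 0.18, -1.21 ± 0.25 and -1.24 ± 0.28. The call of Hkdc1 was lost without P1.5 pup e (adjusted p = 0.0511), and those of Sgpp2, Adssl1 and Lpin2 were lost in 7, 11 and 13 of the 25 fits, with an adjusted p of up to 0.0964. Among regulators, Klf15, a transcription factor that glucocorticoids induce, averaged 6.98 ± 3.59 FPKM before, 1.79 ± 1.4 at P4 to P10 and 9.64 ± 5.81 after (adjusted p = 0.0368 and 0.000855), with P10 pup a listed at 0. Foxo3, a transcription factor held out of the nucleus by growth factor signals, averaged 42.4 ± 13.1, 23.9 ± 2.9 and 42.1 ± 12.1 FPKM (adjusted p = 0.0263 and 0.00476). All 8 libraries of P4 to P10 lay at 28.5 FPKM or less and 16 of the 17 flank libraries at 29 or more, the exception being P19 pup d, rich in zeros, at 20.7. The kinase gene Prkcz and the calcineurin gene Ppp3ca had contrasts of -0.92 ± 0.22 and -0.57 ± 0.12. The call of Foxo3 was lost without P1 pup d, P1.5 pup e, P7 pup d or P10 pup a (up to 0.0681), and those of Klf15, Ppp3ca and Prkcz in 10, 15 and 16 of the 25 fits (up to 0.0923).

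The remaining lower genes were Fam13a, a gene that human studies tie to lung function, the poly(A) polymerase gene Tent5b, the immunoglobulin receptor gene Fcamr, the adhesion receptor gene Icam1 and the tetraspanin gene Tspan11. Fam13a averaged 11.2 ± 2.69 FPKM before, 5.56 ± 2.2 at P4 to P10 and 21 ± 6.92 after (adjusted p = 0.0268 and 2.26e-06). Icam1, which type 1 cells carry in quantity, averaged 143 ± 29, 71.5 ± 12.2 and 128 ± 37.8 FPKM (adjusted p = 0.0221 and 0.0161). Tent5b, Fcamr and Tspan11 had contrasts of -1.30 ± 0.29, -1.81 ± 0.39 and -0.99 ± 0.22. Calls of Icam1 and Tspan11 were lost without P1 pup d or P1.5 pup e (up to 0.0555), that of Tent5b without P1.5 pup e, P7 pup c or P23 pup e (up to 0.0538), that of Fcamr without P0.5 pup e, P1 pup d, P1.5 pup e, P2.5 pup h, P5 pup b or P7 pup d (up to 0.0669) and that of Fam13a in 7 of the 25 fits (up to 0.0667). Without the 3 libraries rich in zeros 11 of the 20 lower calls and 7 of the 40 higher ones were lost. Of the lower genes, Fcamr, Klf15 and Hkdc1 are listed at 0 in P10 pup a, and Fcamr also in 4 other libraries of P4 to P10.

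Markers of both alveolar epithelial cell types lay lower over the same interval. Of 17 type 1 cell genes, 15 had a mean below both flanks, with a median contrast of -0.58, and of 18 type 2 cell genes 16 did, with a median of -0.66, beside 4036 of all 14616 genes below both flanks and a median of 0.02. None of them passed against both flanks. Against the average, the chloride channel gene Clic5 was lower among the type 1 genes (146, 70.1 and 169 FPKM, adjusted p = 0.0118) and Igfbp2 higher. Among the type 2 genes Napsa and Fasn were lower. These calls stand beside 1.07% of all genes lower and 2.80% higher. With 1 library left out, 1 or 2 type 1 genes and 1 to 3 type 2 genes were called lower. The summed FPKM of the type 1 list ranged from 2598 to 4380 before (median 3313), from 1592 to 2405 at P4 to P10 (median 2139) and from 1842 to 3467 after (median 3086). All 8 libraries of P4 to P10 lay below all of P0.5 to P2.5, and they overlapped the later flank. That of the type 2 list, most of it Sftpc, had medians of 16460, 11180 and 15660 and overlapped both flanks. What part this fall had in that of Scnn1a, Atp1b1 and the other lower genes was not tested.

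Of 16 glucocorticoid response genes tested, 5 were lower than the average of the flanks (Tsc22d3, Zbtb16, Klf9, Hif3a and Errfi1), beside 1.07% of all genes, 0 were higher and 0 passed against both. The median contrast was -0.79. With 1 library left out, 5 or 6 were called. Zbtb16 and Tsc22d3 differed mostly from the later flank: Zbtb16 averaged 19.8 FPKM before, 7.91 at P4 to P10 and 96 after (adjusted p = 0.179 and 2.75e-07). Errfi1, an inhibitor of the EGF receptor, and Hif3a differed from the earlier one (adjusted p = 0.0151 and 0.0153) and not from the later (adjusted p = 0.0743 and 0.122). The list mean was 3.38 in P0.5 pup f, against 3.79 to 4.56 in the other 7 libraries of its group and 3.06 to 3.72 at P4 to P10.

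**Figure D4:**
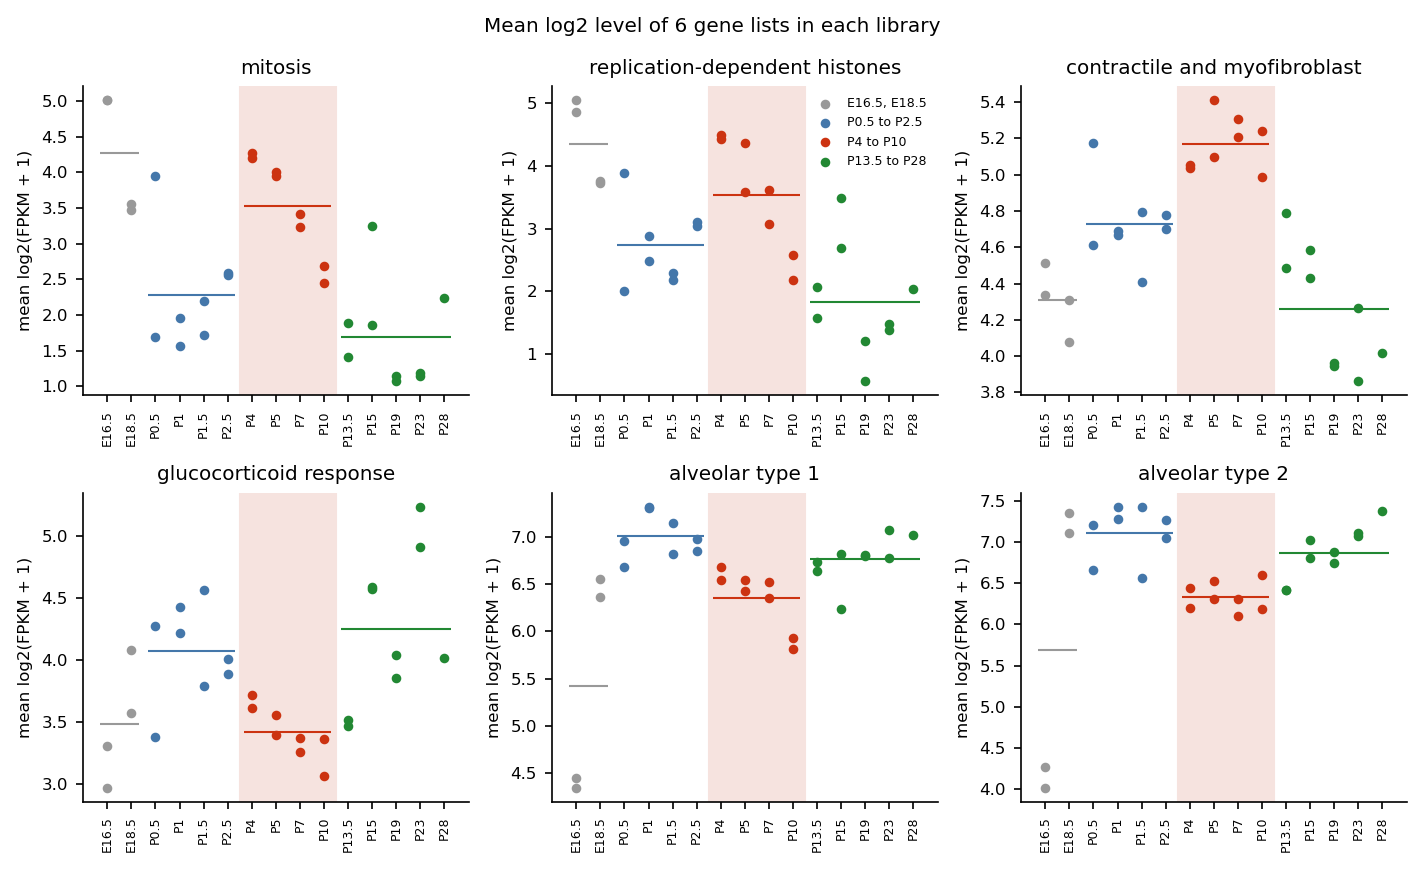
Mean log2(FPKM + 1) over the genes of 6 lists in each library (points) by age, with group means as lines and P4 to P10 shaded; the axes do not begin at 0. The mitosis list declines from 4.27 to 2.45 within P4 to P10 and its P0.5 pup f library is at 3.95, while the glucocorticoid and both epithelial lists have their lowest postnatal group mean at P4 to P10.

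Lists of other cells that a capture could hold had at most 2 genes called against the average of the flanks. Of 14 neutrophil genes tested, 6 were lower than in P0.5 to P2.5, beside 0.937% of all genes. Of the same 14, 2 (Camp and Retnlg) were lower than the average of the flanks, beside 1.07%, with a median contrast of -0.77. The count against the average was 0 without P5 pup b, 1 without P4 pup a or e, P5 pup e, P7 pup c or d, P10 pup a or P15 pup c, and 2 or 3 otherwise. The summed neutrophil markers had medians of 509, 216 and 227 FPKM. The lists of endothelium, capillary subtypes, macrophage, B cell, T and NK cell, erythroid, club cell, ciliated cell, cardiac muscle, skeletal muscle and mesothelium genes held 0 genes called against the average of the flanks, at a median contrast between -0.58 and 0.19. Over all genes 2.80% were called higher and 1.07% lower, so 0 in lists of 4 to 19 genes is near that share. Against P13.5 to P28 alone, 4 of 8 B cell genes (median difference -1.38), 4 of 19 endothelium genes and 3 of 13 capillary subtype genes were lower, beside 3.89% of all genes. Summed club cell genes, led by Scgb1a1, had medians of 2674, 1801 and 4173 FPKM, and summed cardiac muscle genes of 128, 66.6 and 53.5. Single genes were lower in the lymphatic (Mmrn1), retinoid (Aldh1a1) and lipofibroblast lists (Fst and Inmt). In all, 25 of 47 lists held 0 genes called against the average, among them ribosomal proteins (80 genes tested), the respiratory chain (74), cholesterol synthesis, the circadian clock and immediate early genes.

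**Figure D5:**
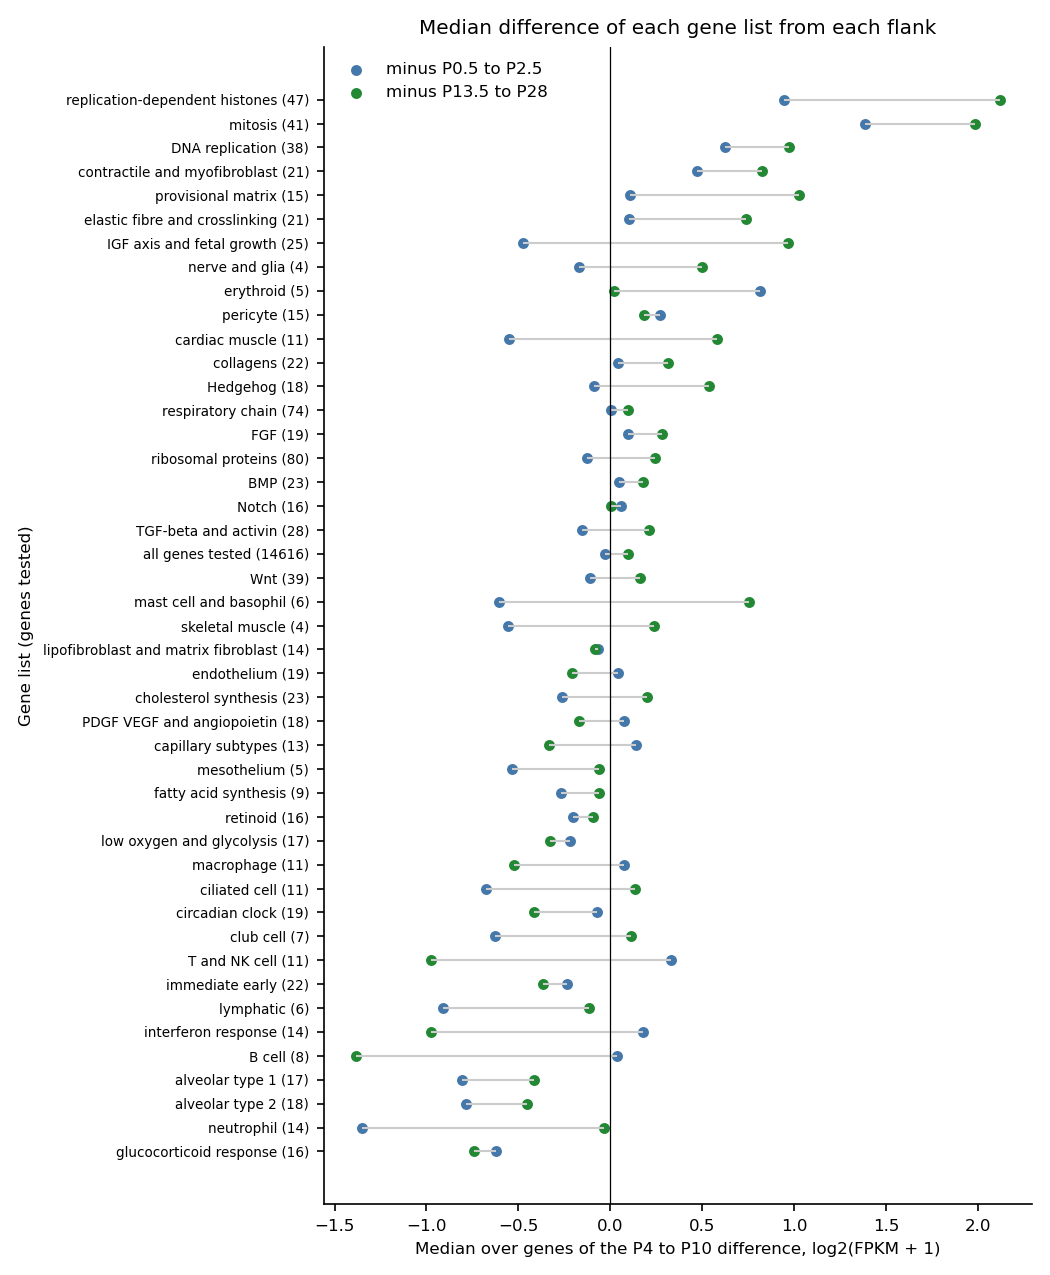
Median over the genes of each list of the difference between P4 to P10 and P0.5 to P2.5 (blue) or P13.5 to P28 (green) on the log2(FPKM + 1) scale, for lists with at least 4 genes tested (number in brackets). Lists with both points to the right, such as mitosis (1.39 and 1.98), lay higher at P4 to P10 than on both sides, and those with both to the left, such as alveolar type 2 (-0.78 and -0.45), lower.

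The choice of window and flanks bore on how many genes stood apart. Set against only the nearest ages, P1.5 and P2.5 before and P13.5 and P15 after, 9 genes were higher and 1 lower, with 4 libraries in each flank. Of the 60 genes, 8 were called in that comparison too: Cdca5, Prokr2, Thsd7b, Cemip, Chst2, Kcnb2 and Tgfb2 higher and Fam13a lower. With P4 to P7 as the window, 46 genes were higher, 25 of them among the 40, and 8 lower, and with P5 to P10, 33 were higher, 28 of them among the 40, and 22 lower. Differences of at least 1 on the log2 scale from both flanks were found for 20 of the 40 higher and 7 of the 20 lower genes.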

How the data were processed

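RNA of laser-captured alveolar septa from 29 mice was measured by RNA sequencing. Per the labels, stranded total RNA libraries were depleted of ribosomal RNA, and the submitters' notes name STAR 2.5.1, mm10 and Cufflinks 2.2.1 for the FPKM values that the authors deposited. The annotation and settings are not given in the sources used here. Depth is unknown.

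The matrix held 24486 lines for 22779 gene IDs. Where lines of an ID differed (944 IDs), that of highest mean was kept. Values were taken as log2(FPKM + 1), and 14616 genes that reached 1 FPKM in 4 or more libraries were tested. Among the called genes, Prokr2, Thsd7b, Phactr3 and Rbfox1 met this only with libraries of P4 to P10 counted. One limma 3.58.1 fit (in R 4.3.3, with moderated variances and an intensity trend) of 4 groups and 29 libraries gave the differences of P4 to P10 from each flank and from their average. P values were adjusted by the Benjamini-Hochberg method over all genes. The prenatal libraries enter no difference, but they enter the filter on low values and the estimate of the spread. Groups come from the age labels. No source says that the animals of an age came from separate litters. P values measure the spread within each group, which holds differences between its ages as well as between its animals. Sex was not used, and it was spread unevenly. By the labels all libraries of P7, P13.5, P15, P19 and P28 were from females and all of P5 and P23 from males. Every other postnatal age had both sexes. The part of sex in the differences was not tested.

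The 60 called genes are all named. The rule for full values took the 12 largest contrasts in each direction with a mean FPKM of at least 5, and up to 4 called members of each list. Cdca5, Prokr2, Thsd7b, Nes, the promoter genes and the role groups were chosen after their values were seen, as were the other genes outside the rule. The groups, gene lists and rules were chosen with earlier results of these data known. Some list genes and Nkx2-1 were not analysed here. Promoters and genes came from RefSeq tables (GRCm38.p6), with a sequence for 53 of the 60 genes. The fit was tested on simulated data. Alternatives were a pseudocount of 0.1, no filter or one at 5 FPKM, scaling by median ratios or quantiles, other fits, weights, windows, flanks and call rules, and each library left out. List counts with libraries left out were added after the data were seen.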

Additional observations from a re-analysis of the deposited data

Results flagged for a closer look

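In the 60 called genes, 180 groups of values were checked for a library far from the others, and 21 had one. The rule has a nominal chance rate of about 1 in 20, which was not tested for these values. FPKM values are skewed, and the cell division genes flagged in P0.5 pup f were high together. The count of 21 in 180 therefore cannot be weighed against that rate. Of the 21, 11 fell in P0.5 pup f, 2 in P15 pup c and 8 in other libraries.

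In P0.5 pup f, 11 genes higher at P4 to P10 stood far above the other 7 libraries of P0.5 to P2.5. Cenpf was at 33.6 FPKM (others 2.33 to 11.1), Spc25 at 46.1 (4.16 to 19.3), Kif20b at 18.8 (1.61 to 8.88), Cip2a at 12.5 (0.399 to 4.4), Clspn at 11.6 (0.918 to 3.09) and Prr11 at 11.2 (0 to 3.37). P2ry14 was at 75.3 FPKM (20.2 to 35.6), Dpt at 126 (38.5 to 62.6), Filip1l at 176 (83 to 125), Kcnb2 at 11.9 (0.991 to 3.84) and Slitrk6 at 9.79 (1.77 to 3.9). Its label gives a body weight of 1.3 g, against 1.4 g for P0.5 pup e and 2.6 and 2.7 g for the P4 pups.

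In P15 pup c, H2ac11 was at 16.4 FPKM (others of the late flank 0 to 3.25) and Cenpf at 19.6 (1.3 to 9.2). Among single genes of P4 to P10, Cdca5 was at 8.15 in P7 pup c (2.03 to 4.85), Gstm6 at 7.9 in P10 pup f (1.2 to 3.67), Gm14092 at 8.98 in P10 pup a (0.927 to 2.76) and Fcamr at 3.49 in P4 pup e (0 to 1.07). In the flanks, Gstm6 was at 2.23 in P1.5 pup e (0 to 1.03), Rbfox1 at 2.99 in P13.5 pup c (0 to 1.05), Slc43a2 at 55 in P19 pup f (41.4 to 46.8) and Phactr3 at 0.245 in P28 pup c, where the other 8 libraries are listed at 0.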

How the results depend on the processing

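No called gene changed direction in any alternative that was run. Over the 60 genes, 25 fits with 1 library left out kept 1142 calls and lost 358, and 13 other settings kept 617 and lost 154. The causes were not tested. For genes against both flanks (40 higher and 20 lower), higher counts fell to 25 with a pseudocount of 0.1, 9 with the nearest ages as flanks, 3 when the larger p was adjusted once and 20 with a difference of at least 1, and rose to 162 in a fit of 15 age groups, 176 with array quality weights and 61 without the 3 libraries rich in zeros. Lower counts were 12 without those libraries, 8 for P4 to P7, 1 with the nearest flanks, 0 with the larger p adjusted once, 7 with a difference of at least 1, 42 with postnatal libraries only, 92 with 15 age groups and 56 with weights. For the contrast with the average (409 higher and 156 lower), higher counts were 705 with 15 age groups, 738 with weights, 222 for P5 to P10, 94 with the nearest flanks and 110 with a difference of at least 1, and lower counts 247 with postnatal libraries only, 408, 345, 80, 18 and 20 in the same order. With 1 library left out the counts were 18 to 109 and 3 to 32 against both flanks, and 286 to 501 and 107 to 196 against the average. Scaling by quantiles gave 57 and 29 against both flanks, and 372 and 215 against the average. No paired analysis was possible because no label links an animal of 1 age to an animal of another.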
